A study of Mus musculus with 8 samples.

Results

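The genes described here are 7 of the m6A writer machinery, Wtap, Virma, Zc3h13, Cbll1, Rbm15, Rbm15b and Mettl16. They were chosen by name from the gene symbols of the 4 deposited m6A peak lists and joined by Ensembl identifier to a table of 53465 genes counted in the 4 input libraries. All 7 were found, among 8733 genes that have a symbol in the lists. A member therefore had to have a peak in at least 1 list. The catalytic subunits Mettl3 and Mettl14 have no symbol there and were not analysed here.

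In the study, fragmented RNA was enriched with an anti-m6A antibody, where m6A is N6-methyladenosine, and sequenced beside an unenriched input. The RNA came from spermatogenic cells of the testes of C57BL/6 mice, 12 weeks old, either wild type (WT) or Alkbh5-/- (KO). The KO mice lack a demethylase that removes m6A from RNA. The labels name the cells PA and RO, which the series title matches to pachytene spermatocytes, in meiotic prophase, and round spermatids, the haploid cells after meiosis. Each genotype and stage has 1 input library, 1 immunoprecipitated library and 1 peak list, so differences have no replicate check and were not tested. The intervals cover counting error only, and amplified reads are not independent molecules. Whether animals were pooled, and how the cells were sorted, is not given in the sources used here.

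The writer complex deposits m6A on messenger RNA in the nucleus. A pair of methyltransferase proteins, METTL3 and METTL14, carries out the reaction, and a larger group of regulators places the pair on RNA. WTAP is the scaffold that joins the pair to the regulators, VIRMA is the large subunit that directs methylation towards the ends of transcripts, ZC3H13 helps to hold the complex in the nucleus, and CBLL1, also called HAKAI, is a RING-type ubiquitin ligase. RBM15 and RBM15B are related RNA-binding proteins that recruit the complex to its targets. METTL16 is a separate m6A methyltransferase outside the complex, which acts on the U6 small nuclear RNA and on the messenger RNA of Mat2a, the gene of an enzyme that makes the methyl donor. In the male germ line, m6A writers are known to be needed for spermatogonial maintenance and for passage through meiosis.

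RefSeq (GRCm38.p6) gives promoter sequence for 6 of the 7 genes; Virma is not among them. The promoters of the 3 genes that were at least 2-fold higher in the KO RO library, Wtap, Zc3h13 and Mettl16, and of Rbm15, whose level varied least, are shown to compare their sequence elements. Each line is the 250 bases before 1 annotated start, 5′ to 3′ on the strand of the gene. Capitals mark the GC box GGGCGG, the CCAAT box CCAAT, the ETS core CCGGAAG and TCTCGCGAGA, the longest run that Rbm15 and Mettl16 share, on either strand.
Wtap (chr17:12992544-12992793, - strand): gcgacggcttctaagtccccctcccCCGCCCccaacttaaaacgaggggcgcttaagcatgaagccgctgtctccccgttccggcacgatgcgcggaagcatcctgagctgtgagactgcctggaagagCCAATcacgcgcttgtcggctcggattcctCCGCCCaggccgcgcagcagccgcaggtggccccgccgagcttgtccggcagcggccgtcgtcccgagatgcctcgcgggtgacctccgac
Zc3h13 (chr14:75284116-75284365, + strand): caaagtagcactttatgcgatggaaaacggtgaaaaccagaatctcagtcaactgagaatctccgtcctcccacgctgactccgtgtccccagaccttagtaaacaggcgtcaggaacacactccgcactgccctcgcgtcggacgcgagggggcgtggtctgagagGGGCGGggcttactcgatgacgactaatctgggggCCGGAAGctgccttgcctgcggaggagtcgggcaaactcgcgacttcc
Mettl16 (chr11:74770613-74770862, + strand): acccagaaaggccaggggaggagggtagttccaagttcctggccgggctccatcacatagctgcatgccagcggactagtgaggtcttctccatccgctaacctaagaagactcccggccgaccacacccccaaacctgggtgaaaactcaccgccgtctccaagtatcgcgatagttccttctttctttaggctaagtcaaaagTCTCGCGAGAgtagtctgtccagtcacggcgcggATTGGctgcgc
Rbm15 (chr3:107333290-107333539, - strand): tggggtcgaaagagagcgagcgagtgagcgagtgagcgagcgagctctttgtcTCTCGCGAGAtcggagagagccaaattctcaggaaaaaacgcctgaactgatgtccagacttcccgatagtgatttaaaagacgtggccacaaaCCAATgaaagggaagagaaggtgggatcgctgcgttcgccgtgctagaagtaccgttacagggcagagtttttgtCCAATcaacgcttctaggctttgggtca

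All 6 genes had more CG dinucleotides in their promoters than the median gene. Over the 300 bases from 250 before to 50 after the start, they held between 20 and 48, against a median of 7 over all RefSeq promoters, and their GC content was 54.3% to 80.3%, against a median of 52.7%. Elements were searched for in the same 300 bases, so some matches, such as the GC box of Rbm15, lie past the printed stretch. A GC box was found in 5 of the 6 (38.2% of all 27025 genes with a promoter) and a CCAAT box in 3 (41.1%). The ETS core was found in Zc3h13 and Cbll1 (9.93% of all genes). The run shared by Rbm15 and Mettl16, which reads the same on both strands, was chosen after the sequences were seen and is in 0.525% of all genes. None of the 6 held TATAAA (15.7% of all genes). CACGTG, an E box, was found in Rbm15b (8.09% of all genes), AAGATGG, a YY1 core, in Rbm15b and Mettl16 (7.28%), and GCATGCGC in none (3.05%). These are matches of letters in a window.

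The input libraries held 9921365 to 13147239 counts. Marker levels are given as CPM, counts scaled to the library total multiplied by its TMM factor, which corrects for differences in RNA composition. Of the cell type markers that have a symbol in the lists, 4 were of pachytene spermatocytes. These 4 summed in PA to 2710 CPM in WT and 1350 in KO, and in RO to 2370 and 1590. The 6 of round spermatids summed to 264 and 579 CPM in PA and to 521 and 1010 in RO. The spermatid sum was thus higher in RO than in PA within each genotype, and the pachytene sum lower in RO in WT but not in KO. Of the 6 spermatid markers, 6 were higher in RO in WT and 5 in KO. Of the 4 pachytene markers, 2 were also higher in RO in WT (Sycp1, 360 to 364 CPM, and Tesmin, 107 to 114) and 4 in KO. Most of the WT pachytene sum was Sycp2, at 1780 CPM in PA and 1520 in RO. Both lists also differed by genotype. In PA, 5 of the 6 spermatid markers were higher in KO, and none of the 4 pachytene markers was; in RO it was 4 of 6 and 1 of 4. All 4 spermatogonial markers with a symbol (Zbtb16, Stra8, Sall4, Gfra1) were higher in KO in both stages. Their sums were 33.4 CPM in WT and 63.9 in KO in PA, and 24.0 and 47.2 in RO. Most of each sum was Zbtb16, at 26.5 and 51.7 CPM in PA and 17.2 and 26.5 in RO. Gfra1 and Sall4 were near the floor in WT RO, at 0.174 and 0.521 CPM. RNA of somatic cells was present in every library: 3 Sertoli markers summed to between 79.0 and 151 CPM, 3 Leydig markers to between 273 and 327, 3 endothelial markers to between 32.8 and 106, the muscle marker Myh11 was at 143 to 285 CPM, and the macrophage marker Csf1r at 2.13 to 21.5. No marker with a symbol was at 0. The KO PA peak list went against its name in 1 check: the 658 genes with a peak in that list alone were highest in the KO RO library, with a median deviation of 0.09 from the gene mean on the log2 scale, against 0.03 in KO PA. Genes found in 1 of the other lists alone were highest in the library of that name. Alkbh5 has no symbol in the lists and was not analysed here, so its counts gave no check of the genotype labels.

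Input levels of the members are likewise counts scaled by TMM factors and given as CPM. Every member had more than 10 CPM in each library. The values describe 1 gene across libraries. Levels of different members are not compared here, because no transcript lengths were used.

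Zc3h13 (ENSMUSG00000022000), the nuclear anchor, had 3799 counts in WT and 6200 in KO among PA cells, or 324 and 573 CPM, and 3111 and 7526 counts, or 270 and 687 CPM, among RO cells. Both KO libraries were above both WT libraries. Wtap (ENSMUSG00000060475), the scaffold, had 229 counts (19.5 CPM) in WT and 383 (35.4 CPM) in KO in PA, and 140 (12.2 CPM) and 334 (30.5 CPM) in RO. It too was higher in both KO libraries than in both WT libraries. Cbll1 (ENSMUSG00000020659), the ubiquitin ligase, had 337 (28.7 CPM) in WT and 646 (59.7 CPM) in KO in PA, and 605 (52.5 CPM) and 630 (57.5 CPM) in RO. Its WT PA library stood low and the other 3 lay close together, with KO above WT by a small margin in RO.

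Virma (ENSMUSG00000040720), the large subunit, had 2191 counts (187 CPM) in WT and 1394 (129 CPM) in KO in PA, and 1376 (120 CPM) and 1654 (151 CPM) in RO. It was highest in WT PA and lowest in WT RO, so the genotypes overlapped. Rbm15 (ENSMUSG00000048109), which recruits the complex, had 1853 counts (158 CPM) in WT and 1668 (154 CPM) in KO in PA, and 1709 (148 CPM) and 1573 (144 CPM) in RO. Its highest library was 1.10 times its lowest, the smallest range of the 7 genes. Rbm15b (ENSMUSG00000074102), its paralog, had 259 counts (22.1 CPM) in WT and 266 (24.6 CPM) in KO in PA, and 593 (51.5 CPM) and 351 (32.0 CPM) in RO. Both RO libraries were above both PA libraries, and WT RO was 2.33 times WT PA. Mettl16 (ENSMUSG00000010554), the separate methyltransferase, had 546 counts (46.5 CPM) in WT and 590 (54.5 CPM) in KO in PA, and 253 (22.0 CPM) and 494 (45.1 CPM) in RO. Its WT RO library stood low, and the other 3 lay within 45.1 to 54.5 CPM. RefSeq places another gene over part of Zc3h13 (Gm46470), Cbll1 (Gm40362), Rbm15 (Slc16a4), Rbm15b (Dcaf1) and Mettl16 (LOC115487898), and the strand setting of the counting is not given in the sources used here, so reads of these pairs may not be fully separated.

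**Figure D1:**
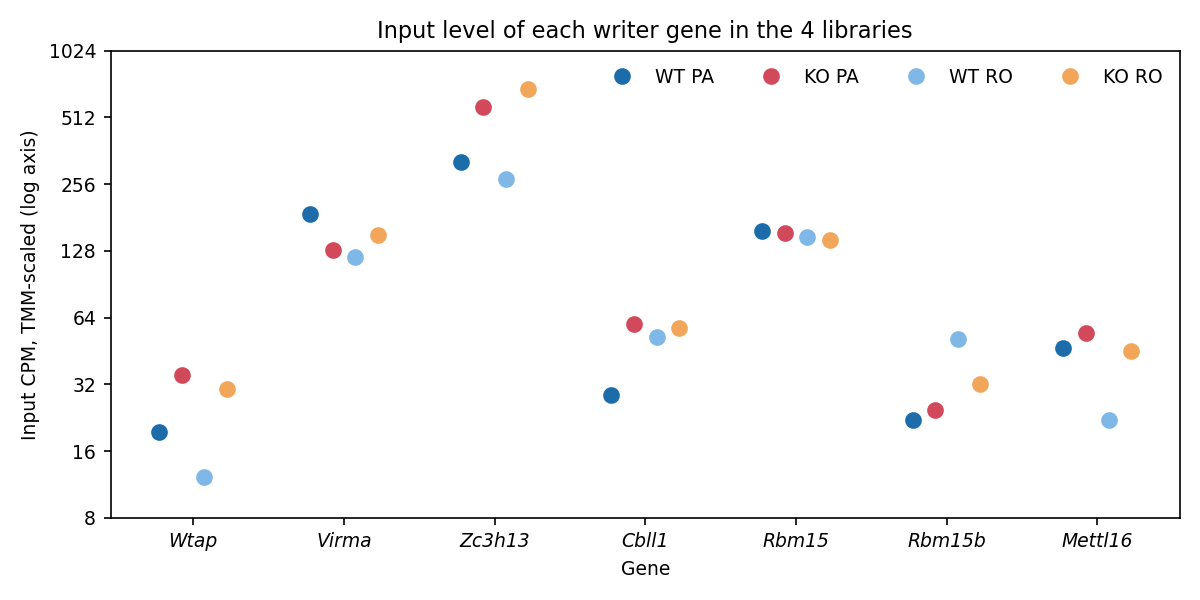
Input level of each of the 7 genes in the 4 libraries, as TMM-scaled CPM on a log axis; each point is 1 library. Both KO points lie above both WT points for Wtap, Zc3h13 and Cbll1, and the 4 points of Rbm15 lie between 144 and 158 CPM.

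The comparison of KO with WT asks whether loss of the demethylase goes with a change in the level of the writers. In PA, Cbll1 was 2.07-fold higher in KO, a log2 ratio of 1.05 (95% interval 0.86 to 1.25). Wtap was 1.81-fold higher (log2 0.85, 0.62 to 1.10) and Zc3h13 1.77-fold higher (0.82, 0.77 to 0.88). Virma was the lowest, at a log2 ratio of −0.53 (−0.63 to −0.44). The log2 ratio was 0.23 (0.06 to 0.40) for Mettl16, 0.15 (−0.10 to 0.41) for Rbm15b and −0.03 (−0.13 to 0.06) for Rbm15, the intervals of the last 2 including 0. Cbll1 was the 1 member past 2-fold, where 23.8% of the 24331 genes that reached 1 CPM in either library were at least 2-fold higher in KO, 19.9% at least 2-fold lower and 43.7% either way. With no TMM factor, which moves the median of all genes by 0.28 on the log2 scale, 3 members were past 2-fold, and the share of higher genes among all those past 2-fold was 67.8% in place of 54.6%. Fewer cells of a type and less RNA per cell cannot be told apart in these bulk libraries.

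In RO, Zc3h13 was 2.54-fold higher in KO (log2 ratio 1.35, 1.29 to 1.41), Wtap 2.49-fold higher (1.31, 1.04 to 1.62) and Mettl16 2.04-fold higher (1.03, 0.82 to 1.26). Virma was 1.26-fold higher (0.34, 0.23 to 0.44), the opposite of its direction in PA. Rbm15b was lower in KO, with a log2 ratio of −0.68 (−0.88 to −0.49). Cbll1 had a log2 ratio of 0.13 (−0.03 to 0.29) and Rbm15 one of −0.05 (−0.15 to 0.05), both within counting error. The 3 members past 2-fold were all higher in KO, where 23.0% of 24763 genes were at least 2-fold higher, 19.0% at least 2-fold lower and 42.1% either way. All 7 members reached 10 CPM in either library. Of the genes that did so, 11.8% were at least 2-fold higher, 12.9% lower and 24.6% either way in RO. In PA these were 13.3%, 13.0% and 26.4%.

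The median log2 ratio of the 7 members was 0.23 in PA and 0.34 in RO, against 0.04 in each stage over all genes that reached 1 CPM. With no TMM factor the member median was 0.52 in each stage, against 0.32 in PA and 0.22 in RO over all genes. In each stage 5 members had a ratio above 0 and 2 below. Rbm15 was above 0 in both stages with no TMM factor, at 0.25 and 0.13. In TMM-scaled CPM, the sums of the spermatogonial, spermatid, Sertoli and endothelial markers and the Csf1r level were also higher in KO in both stages. The Sertoli sum went from 124 to 151 CPM in PA and from 79.0 to 92.0 in RO, with 1 and 2 of its 3 markers higher. The Leydig sum and Myh11 were lower in KO in PA and higher in RO. Of the Leydig markers, Cyp11a1 and Hsd3b1 were lower in KO in both stages and Insl3 was higher. Endothelial markers went from 78.2 CPM in WT to 104 in KO in PA and from 32.8 to 106 in RO, with 3 of 3 higher each time, and Csf1r from 2.13 to 12.3 and from 6.86 to 21.5. Of the spermatid markers, Acrv1 was lower in KO in both stages and Catsper1 in RO. The part of these cell types in the ratios of Zc3h13, Wtap and Cbll1 was not tested.

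Ratios of well-counted genes spread far more than counting error in these libraries, so each member was set beside genes with a similar summed count. Among 1842 genes with 2560 or more counts summed over the RO libraries, the robust SD of the log2 ratio (the scaled median absolute deviation) was 0.56 around a median of −0.25, and 2.33% of them lay as far from that median as Zc3h13. In PA, where the SD of 1840 genes was 0.61, 9.29% lay as far as Zc3h13. For Wtap the same share was 15.3% in RO and 39.7% in PA, for Cbll1 15.0% in PA and 83.4% in RO, and for Mettl16 15.7% in RO and 73.3% in PA. Rbm15b (35.8% in RO) and Virma (67.8% in PA, 30.9% in RO) lay well inside the spread of such genes. Zc3h13 thus stood farthest out of the 7 in both stages.

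**Figure D2:**
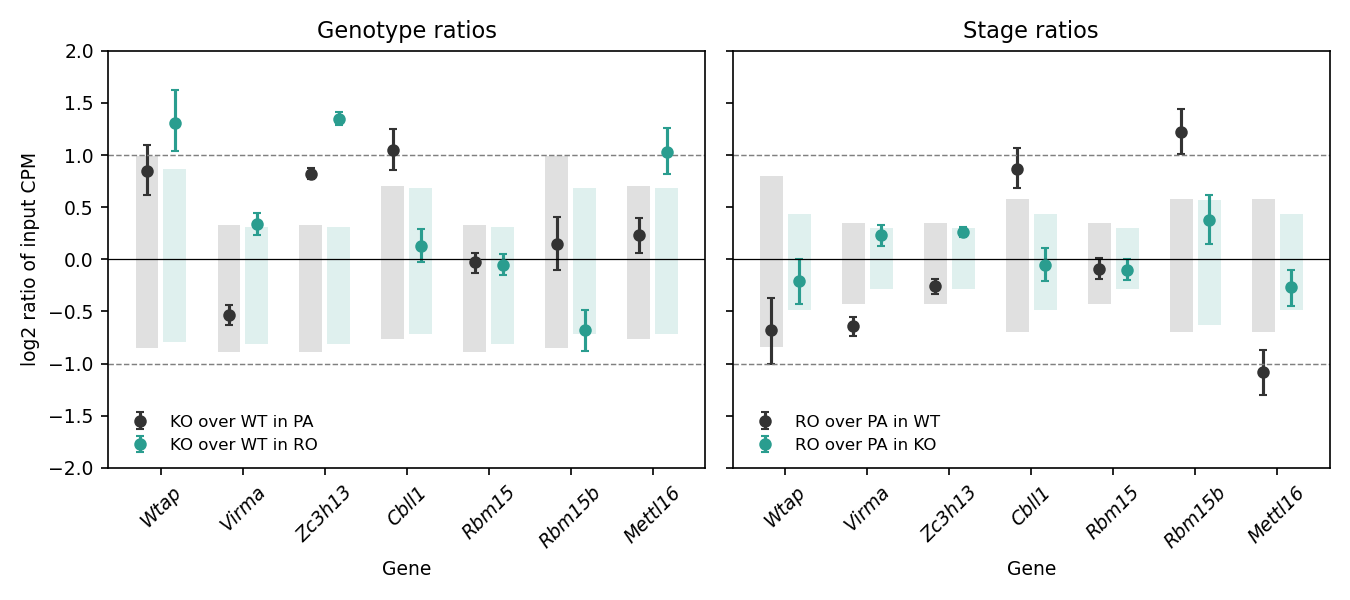
Log2 ratio of input CPM for each gene between genotypes (left) and stages (right); points are ratios, error bars 95% intervals for counting error, shaded bars the median ± 1 robust SD of all genes with a similar summed count, and dashed lines 2-fold. Zc3h13 lies above the shaded bar in both stages, at 0.82 in PA and 1.35 in RO, and Rbm15 lies near 0 in all 4 comparisons.

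Both KO libraries were above both WT libraries for 3 of the 7 members, Wtap, Zc3h13 and Cbll1, and below them for none. Over the 13677 genes that reached 10 CPM in any library, 23.8% had KO above WT and 27.4% KO below WT. Over those that reached 1 CPM these were 22.3% and 20.7%. With no TMM factor Rbm15 and Mettl16 also had KO above WT. The genotype ratio differed in sign between the stages for Virma and Rbm15b, as for 30.5% of the same genes, although the PA ratio of Rbm15b was within counting error. RO minus PA, the genotype ratio differed by 0.87 for Virma, 0.80 for Mettl16, −0.84 for Rbm15b and −0.92 for Cbll1, and by −0.01 for Rbm15. None of these reached 1, the size that 22.8% of genes passed.

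The stage comparison sets the RO libraries beside the PA libraries, which markers separated only in part. The pachytene sum was 2710 CPM in PA and 2370 in RO in WT, and 1350 and 1590 in KO. The spermatid sum was 264 and 521 CPM in WT, and 579 and 1010 in KO. The part of mixed cell types in the stage ratios was not tested. In WT, Rbm15b was 2.32-fold higher in RO than in PA (log2 ratio 1.22, 1.01 to 1.44) and Cbll1 1.82-fold higher (0.87, 0.68 to 1.07). Mettl16 was lower in RO, with a log2 ratio of −1.08 (−1.30 to −0.87), as were Wtap (−0.68, −1.0 to −0.37), Virma (−0.64, −0.74 to −0.55) and Zc3h13 (−0.26, −0.33 to −0.19). Rbm15 had a ratio of −0.09 (−0.19 to 0.01). Of 23979 genes, 21.6% were at least 2-fold higher in RO, as Rbm15b was, 18.7% at least 2-fold lower, as Mettl16 was, and 40.2% either way. Of those that reached 10 CPM these were 11.5%, 9.64% and 21.2%. Among genes of similar summed count, 7.71% lay as far from the median as Rbm15b, 14.6% as far as Mettl16 and 18.1% as far as Virma. With no TMM factor the ratio of Mettl16 was −0.98, inside 2-fold.

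In KO, no member differed 2-fold between the stages, where 32.7% of 24806 genes did (17.5% higher and 15.2% lower in RO). Of those that reached 10 CPM, 10.9% did (5.21% higher and 5.64% lower). The ratios ran from −0.27 (−0.45 to −0.10) for Mettl16 to 0.38 (0.15 to 0.62) for Rbm15b. Virma, at 0.23 (0.13 to 0.33), and Zc3h13, at 0.26 (0.21 to 0.31), were higher in RO in KO and lower in RO in WT. Cbll1 had a ratio of −0.05 (−0.21 to 0.11) in KO. The median of the 7 members was −0.26 in WT and −0.05 in KO, against 0.01 over all genes in each. Both RO libraries were above both PA libraries for Rbm15b, as for 15.8% of genes that reached 10 CPM in any library (16.2% at 1 CPM). They were below them for Mettl16 and Rbm15, as for 17.0% (14.6% at 1 CPM), and these 2 lost this order with no TMM factor.

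Members differed in how alike their patterns were. With log2 CPM centred on the mean of each gene over the 4 libraries, the Euclidean distance was smallest between Wtap and Zc3h13 (0.45), Virma and Rbm15 (0.46), and Wtap and Mettl16 (0.54). The paralogs Rbm15 and Rbm15b were 1.01 apart, and Wtap and Rbm15b, the farthest pair, 1.94. Among 5309 other genes that have a symbol and reached 10 CPM in every library, the nearest to Zc3h13 were Orc1 (distance 0.08) and Tle4 (0.10), and the nearest to Wtap were Spred1 (0.06) and Rlim (0.10). For Cbll1 they were 1700049L16Rik (0.09) and Rhbdd2 (0.10), for Mettl16 Sec63 (0.06) and Calu (0.11), and for Rbm15b Stk36 (0.09) and Prm3 (0.09), the last a spermatid protamine gene. For Virma they were 2310035C23Rik (0.07) and Arhgef40 (0.08), and for Rbm15 Cep83 (0.03) and Larp4b (0.05). A pattern over 4 libraries is easily matched. Within a distance of 0.5 lay 3.33% of the genes for Zc3h13, 3.48% for Wtap and 32.6% for Rbm15.

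Of 27 other genes of the m6A pathway (methyltransferases and cofactors, methyl donor enzymes, erasers and readers), 13 have a symbol in the lists. In PA, 23.8% of all genes that reached 1 CPM were at least 2-fold higher in KO and 19.9% lower. Of the 13, 2 were at least 2-fold higher and none lower. These were Fto, the gene of the other m6A eraser (log2 ratio 1.32, from 1675 and 3860 counts), and Trmt112, a methyltransferase cofactor (1.20, from 13 and 30 counts). In RO Fmr1, the gene of an RNA-binding protein listed as a reader, was higher (1.24, from 675 and 1520 counts) and Trmt112 lower (−1.16, from 87 and 36). Of all genes that reached 1 CPM there, 23.0% were at least 2-fold higher and 19.0% lower. The median of the 13 was 0.44 in PA and −0.02 in RO. Between the stages, Trmt112 was higher in RO in WT (2.59) and none of the 13 passed 2-fold in KO. Of all genes, 21.6% were at least 2-fold higher in RO in WT, and 32.7% passed 2-fold either way in KO. Mat2a, the messenger RNA target of METTL16, had 265 CPM in WT and 175 in KO in PA, and 186 and 139 in RO. Its log2 ratio KO over WT was −0.60 in PA and −0.42 in RO. Both lay inside the spread of genes with 2560 or more summed counts. The median of such genes was −0.28 (robust SD 0.61) in PA and −0.25 (0.56) in RO. The ratio of Mettl16 was 0.23 in PA and 1.03 in RO, and a link of Mat2a to Mettl16 was not tested.

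The peak lists show where the writers' own transcripts were enriched by the m6A antibody. Fold enrichment, p-value, false discovery rate (FDR) and feature class are the authors', coordinates are those of mm10 counted from 1, and folds are compared only within a list. The members held 63 peaks, of which the PA lists gave 17 in WT and 17 in KO, and the RO lists 15 and 14. By class, 52 lay in coding sequence, 10 in exons of Rbm15 and 1 in a 3′ untranslated region. Peaks whose exon blocks overlap on the same strand were joined into 20 sites, of which 9 were present in all 4 lists, 3 in 3 lists, 4 in 2 and 4 in 1. Virma, Zc3h13, Cbll1, Rbm15 and Rbm15b each had at least 1 site in all 4 lists.

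In each stage a peak was listed for 6 members in WT and 5 in KO. Of all genes that reached 10 CPM in the matching input, the share with a peak was 34.8% in WT and 43.5% in KO for PA, and 40.2% and 39.3% for RO. The choice of members by the lists fixes that each has one somewhere, so these counts show only how the peaks fall among the lists. The sixth member in WT PA was Wtap and in WT RO Mettl16, both with an FDR above 0.05. At an FDR under 0.05 the other 5 members had a peak in every list. Of the 8860 genes that reached 10 CPM in all 4 libraries, 27.4% had such a peak in all 4 lists, and 28.6% had one at any FDR.

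Zc3h13 had 4 peaks in WT and 5 in KO in PA, and 3 and 4 in RO, all in coding sequence, along 5 sites. In each list 14.0% or fewer of the genes with a peak had 3 or more. The site with the lowest p-values was the fourth in transcript order, whose core shared by all lists is chr14:75331900-75332139 on the + strand. Its fold was 24.4 in WT PA, 39.0 in KO PA and 20.5 in KO RO, each listed with an FDR of 0. In WT RO its fold was 5.04, lower than most peaks of that list (8.61% were lower still). The first site (core chr14:75323285-75323435) had folds of 20.6 in WT and 152 in KO in PA, and 21.5 and 17.3 in RO. The KO PA peak there spanned 3 exon blocks and ranked 62 of 9931 in its list.

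The fifth site of Zc3h13 (chr14:75339437-75343798), nearest the 3′ end, was in both KO lists, with folds of 18.4 in PA and 8.93 in RO, and in neither WT list. The peaks of Zc3h13 covered 1081 exonic bp in WT and 2878 in KO in PA, and 542 and 1441 in RO. Within each stage the covered length was larger in KO, as were the input counts of Zc3h13, and the part of the counts in this was not tested. The second site (chr14:75324541-75328109) was in every list but KO RO, with folds of 2.95 in WT PA, 15.1 in KO PA and 15.7 in WT RO. The third site (chr14:75329727-75330646) was in every list but WT RO, with folds of 14.6 and 30.5 in PA and 7.25 in KO RO.

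Virma had 4 peaks in WT and 3 in KO in PA, and 5 and 2 in RO, all in coding sequence. Its first and second sites lay next to each other and were in all 4 lists, with cores at chr4:11513352-11513472 and chr4:11513682-11513922 on the + strand. At the second, the strongest peak had a fold of 34.8 in WT and 25.0 in KO in PA, and 91.5 and 38.7 in RO, each above 75.3% or more of the peaks of its list. At the first, the folds were 7.03 and 12.0 in PA and 13.5 and 57.1 in RO, of which the last was above the median of its list. The third site (chr4:11518979-11519339) was in every list but KO RO, with folds of 8.08, 19.9 and 16.1. The fourth site (chr4:11526667-11526817, fold 5.27) was listed in WT PA alone. The fifth (chr4:11526997-11527206, fold 14.8), 179 bp away, was listed in WT RO alone. Neither had a counterpart in KO or in the other WT list. Of all peaks, 79.7% in WT PA and 55.9% in WT RO overlapped a KO peak of that stage.

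Rbm15 carried the longest peak of the 7 genes. The block covered 1497 bp in WT and 1647 in KO in PA, and 1617 and 1527 in RO, against a median of 237 to 269 exonic bp per peak over each list. The stretch chr3:107330830-107332296 on the - strand, 1467 bp, was covered in every list. Its fold was 103, 89.2, 369 and 54.2 in this order, each with an FDR listed as 0, and its rank was 148 of 7502, 254 of 9931, 26 of 9418 and 678 of 8846. The lists class it as exon and not as coding sequence. A second site (core chr3:107330321-107330471) was also in all 4 lists, with folds of 17.9, 8.65, 73.5 and 17.8.

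The third site of Rbm15 (chr3:107326229-107327298, 2 blocks) was in both KO lists, with folds of 6.02 in PA and 5.82 in RO, and in neither WT list. The input counts of Rbm15 were between 1573 and 1853. Immunoprecipitated counts were not analysed, and the part of read depth in this pattern was not tested. Among all peaks, 12.3% of those in KO PA overlapped a KO RO peak and no WT peak, and 14.1% of those in KO RO overlapped a KO PA peak and no WT peak. Both folds were low in their lists, above 16.4% and 19.1% of the peaks.

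Rbm15b had 4 peaks in each list except WT RO, which had 3, all in coding sequence. Its strongest site (core between 106884800 and 106885353 on chromosome 9, - strand) was in all 4 lists. The top fold there was 88.9 in WT and 146 in KO in PA, and 64.6 and 85.6 in RO, above at least 89.1% of the peaks of the list. Each list gives this site 2 or more overlapping peaks, with and without a split into blocks, which are not separate sites. A site towards the 3′ end (core chr9:106884352-106884501) was also in all lists, with folds of 50.6, 11.5, 13.5 and 21.6. The site nearest the 5′ end (chr9:106885995-106886263) was in both PA lists, with folds of 26.4 in WT and 27.8 in KO, and in neither RO list. The RO inputs held more Rbm15b counts than the PA inputs. Immunoprecipitated counts were not analysed, and the part of read depth in this pattern was not tested. Of all WT PA peaks, 5.75% overlapped a KO PA peak and no RO peak.

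Cbll1 had 2 peaks in each PA list and 1 in each RO list, all in coding sequence. Its first site, in all 4 lists, had folds of 4.22 in WT and 4.66 in KO in PA, and 2.69 and 2.29 in RO, above 10.7% or fewer of the peaks of its list. The stretch covered in all lists is chr12:31488147-31488177 on the - strand. Its second site (chr12:31487340-31487609) was in the PA lists, with folds of 17.9 in WT and 18.8 in KO. The lists also give a peak on the opposite strand at this place to Gm29542, an antisense RNA, with folds of 17.9 in WT PA and 11.7 in KO PA. In WT PA both peaks have an FDR of 0.000229. The second Rbm15 site, on another chromosome, has the same fold and FDR there, so equal values also occur at separate places. In PA, Gm29542 had 17 input counts in WT and 34 in KO, against 337 and 646 for Cbll1. The strand setting of the reads is not given in the sources used here, so the gene behind this peak is uncertain.

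Wtap and Mettl16 each had 1 peak in 1 list. The Wtap peak, in coding sequence (chr17:12975340-12980866, - strand, 2 blocks of 180 bp in all), was in WT PA with a fold of 4.22 and an FDR of 0.113. The Mettl16 peak, in a 3′ untranslated region (chr11:74827986-74828105, + strand), was in WT RO with a fold of 6.73 and an FDR of 0.818. It starts 1131 bp past the end of the RefSeq gene, so it lies in a longer transcript model of the authors' annotation. Both came from the library in which the gene had fewer counts than in its KO counterpart.

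**Figure D3:**
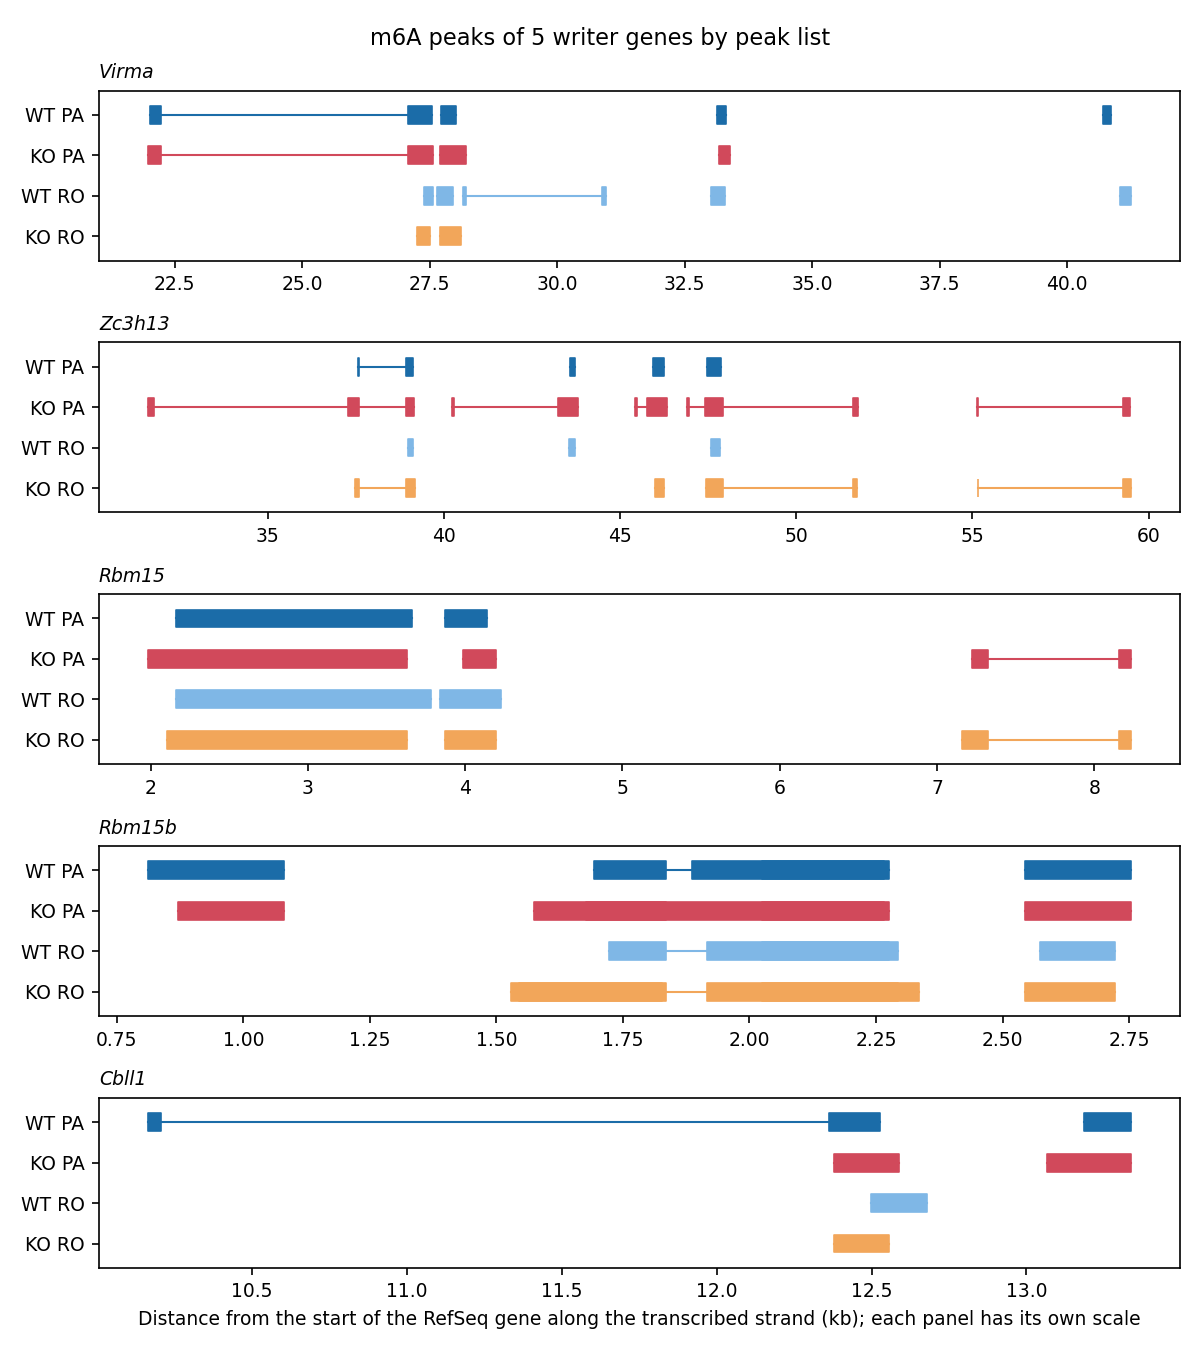
Peaks of 5 genes in the 4 lists, by distance in kb from the start of the RefSeq gene along its strand; boxes are exon blocks and thin lines join the blocks of 1 peak. The long Rbm15 block recurs in all lists, and the last sites of Zc3h13 and Rbm15 are in the KO lists.

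The overlap of member peaks between genotypes was set beside that of all peaks. In PA, 15 of 17 WT peaks had 1 bp or more in common with a KO peak, where 79.7% of all WT peaks did, and 15 of 17 KO peaks overlapped a WT peak (56.6% of all). In RO, 10 of 15 WT peaks overlapped a KO peak (55.9% of all) and 11 of 14 KO peaks a WT peak (58.9%). With a reciprocal overlap of 50%, 6 of 15 WT peaks (40.0% of all) and 6 of 14 KO peaks (42.6%) were shared in RO. These shares were close to those of all peaks. In PA, 13 of 17 WT peaks (60.2% of all) and 13 of 17 KO peaks (45.5%) were shared at this overlap. With the names of the KO lists exchanged, 11 of 17 WT PA peaks (73.0% of all) were shared with the KO list then of that stage. For WT RO this was 13 of 15 (60.6%). On the KO side, 12 of 14 KO RO peaks (60.3% of all) and 12 of 17 KO PA peaks (55.0%) were shared. The member share of WT PA peaks was then below that of all peaks, and the other shares were above it. Sites in both KO lists do not depend on the names, but the PA sites of Rbm15b and Cbll1 would then be in WT PA and KO RO. Overlap with each of the other 3 lists was found in PA for 58.8% of the member peaks in WT (52.3% of all) and 58.8% in KO (37.8%), and in RO for 66.7% in WT (41.2%) and 78.6% in KO (43.5%). Peaks of 1 gene are not independent, and most of these came from 4 genes.

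**Figure D4:**
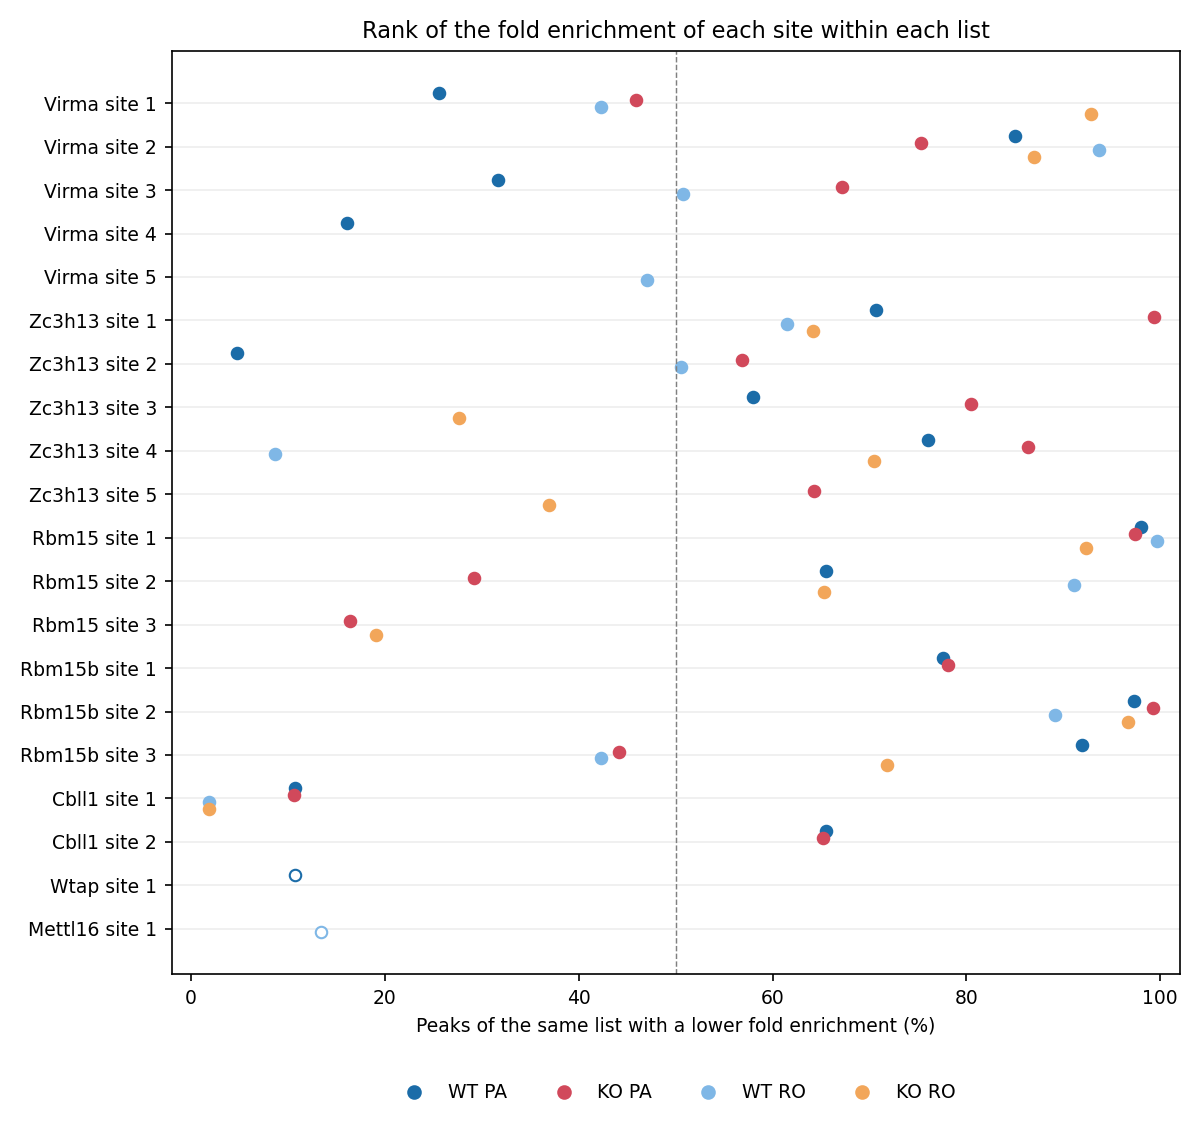
Share of the peaks of the same list with a lower fold, for each site and list (strongest peak of the site); open circles have an FDR of 0.05 or more and the dashed line is the median of a list. The first Rbm15 site lies above at least 92.3% of the peaks in all 4 lists, and the first Cbll1 site above at most 10.7%.

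Within the lists, the fold was above the list median for 11 of 17 member peaks in WT and 12 of 17 in KO in PA, and for 8 of 15 and 10 of 14 in RO. The overlapping peaks of the strongest Rbm15b site, all above the median, enter these counts and the medians below more than once per list. The median fold of the members was 17.9 in WT (11.7 over the list) and 19.9 in KO (13.0) in PA, and 15.7 (15.1) and 21.1 (12.1) in RO. The member peak with the highest fold was that of Rbm15 in WT PA (103) and WT RO (369), that of Zc3h13 in KO PA (152) and that of Rbm15b in KO RO (85.6). Wtap and Zc3h13, whose input patterns were the closest of any pair, had 1 and 16 peaks, the fewest (with Mettl16) and the most of the 7. The 16 peaks fall on 5 sites, counted again in each list. Input counts ran from 140 to 383 for Wtap and from 3111 to 7526 for Zc3h13. The part of the counts in the number of peaks was not tested.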

How the data were processed

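MeRIP-seq input counts (4 libraries) and peak lists (4 pairs of libraries) were analysed. The authors deposited whole-number gene counts, not normalized, and peak lists whose columns, per the file headers, hold the log10 of the p-value and of the false discovery rate, the fold enrichment (a ratio) and a class; the deposited score column holds the p-value, as its values show. Per the submitters' processing notes, cutadapt 2.5, HISAT2 2.1.0, HOMER 4.10.4 and the mm10 build were used; the counter, peak caller, annotation, strand and duplicate handling are not given in the sources used here. Immunoprecipitated counts were not analysed here. Samples were grouped by title, peak lists by name.

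Counts were scaled with TMM (edgeR 4.0.16, R 4.3.3) and turned into log2 CPM with a prior count of 2; the fold limit was 2, and genes had to reach 1 CPM in either library. Intervals are exact binomial at 95% and cover counting error only. Sites and overlaps used exon blocks on the same strand with at least 1 bp (Python 3.11.15, pandas 2.3.3, scipy 1.17.1). Scripts were tested on simulated data. Alternatives were DESeq2 1.42.0 size factors, no factor, a prior of 0.5, other filters, peak limits and overlaps. Members, gene lists and markers were chosen with earlier results of these data known. Named genes were the members, pathway genes past 2-fold (Mat2a was added as the METTL16 target), and the 2 nearest patterns per member; Gm29542 was chosen after its values were seen. RefSeq (GRCm38.p6, the same assembly as mm10) gave gene spans and promoters. 1 of the 7 members, Virma, has no promoter entry.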

Additional observations from a re-analysis of the deposited data

Results flagged for a closer look

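For 2 genes the same comparison went in opposite directions in the 2 groups it was made in, with both counting intervals away from 0. Virma had a log2 ratio KO over WT of −0.53 in PA and 0.34 in RO, and, from the same 4 libraries, a log2 ratio RO over PA of −0.64 in WT and 0.23 in KO. Zc3h13 had a log2 ratio RO over PA of −0.26 in WT and 0.26 in KO. With 1 library per group the difference was not tested. Of genes that reached 10 CPM in any library, 30.5% had genotype ratios of opposite sign in PA and RO, counted with no condition on the intervals. The share of genes with stage ratios of opposite sign, as for Zc3h13, was not computed.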

How the results depend on the processing

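No member ratio whose counting interval excluded 0 changed sign under the alternatives run. DESeq2 size factors and a prior count of 0.5 kept every count of members past 2-fold and every median of the members within the limits set. Without a TMM factor the median of all genes moved by 0.28 in PA and 0.18 in RO for KO over WT. The members past 2-fold then numbered 3 in PA in place of 1 (Cbll1 1.34, Wtap 1.14, Zc3h13 1.11) and 1 between the stages in WT in place of 2, and the median log2 ratio of the members was 0.52 in PA and 0.52 in RO. The share of genes higher in KO among those past 2-fold in PA moved from 54.6% to 67.8%. With a limit of 10 CPM in place of 1, the percent of all genes past 2-fold was 26.4 for KO over WT in PA, 24.6 in RO, 21.2 for RO over PA in WT and 10.9 in KO. A reciprocal overlap of 50% left 6 shared WT RO peaks in place of 10 and 6 shared KO RO peaks in place of 11. Limits on the false discovery rate or fold, sharing by gene, and exchanging the names of the KO lists (chosen after seeing the data; 11 of 17 WT PA peaks shared) moved no other count of member peaks by more than 1.5 times. No paired analysis was possible because the labels give no replicate numbers that would pair libraries; a fit of genotype with stage as a term, which would take their interaction as error, was not run. Levels per transcript length were not run, since the reference table gives genomic spans. The lowest count of any member was 140, for Wtap in WT RO.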
